A study of Mus musculus with 57 samples.

Results

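Wild-type corticospinal neurons (CSN) were compared with control cells in 14 pairs of mouse brain libraries, 28 of the 57 libraries of the series. The pairs were chosen by their labels. Every wild-type library of CSN whose age and number also occur in a wild-type library of control cells was taken. This left out 2 CSN libraries of 60 days that have no partner. There were 4 pairs at 30 days, 2 at 60 days, 4 at 90 days and 4 at 105 days, taking the bare ages in the labels to be days. All animals of these pairs are labelled wild type, with no treatment, sex or strain given, and the tissue is given as brain. The control cells are described no further, and neither the way in which the cells were isolated nor the number of cells per library is stated. The members of a pair share their age, genotype and number and have neighbouring library names, but the labels do not say that they came from the same animal. The rest of the series holds Sod1G86R animals, a model of ALS in which mice carry mutant superoxide dismutase 1 and lose motor neurons, with 11 pairs of the same kind: 2 at 30 days, 3 at 60 days, 4 at 90 days and 2 at 105 days.

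CSN are large pyramidal neurons of layer 5 of the cerebral cortex that send a long axon through the brainstem to the spinal cord and carry the cortical command for voluntary movement. During development the transcription factor Fezf2 sets their fate and acts through Bcl11b (Ctip2), whereas neurons that connect the hemispheres through the corpus callosum follow another programme. CSN and spinal motor neurons are the cells that are lost in amyotrophic lateral sclerosis (ALS). A comparison of the RNA of CSN with that of control cells shows which genes of channels, receptors, cytoskeleton and surface molecules differ in level between them in wild-type animals.

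The values are the deposited normalised read counts, which give the level of a gene in a library and are not divided by gene length, so levels are compared between libraries and not between genes. A difference is the mean over pairs of log2(CSN value + 34.6) minus log2(control value + 34.6), with its standard error (SE), and a gene passed where limma gave an adjusted p under 0.05 (Benjamini-Hochberg, over 20594 genes). The added 34.6 shrinks the differences of genes at low levels. The libraries held 22.8 to 50.3 M reads in CSN and 32.4 to 64.2 M in control cells. Correlations of log2 values between libraries were 0.936 to 0.988 within CSN (median 0.964), 0.801 to 0.969 within control cells (median 0.916) and 0.775 to 0.927 between them (median 0.867). Control libraries were thus less alike than CSN libraries. The first principal component held 44.5% of the variance and separated the cell types in every pair, with the control library of pair 3 at 90 days nearest to the CSN libraries.

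The control libraries held RNA of several cell types, and some of the same RNA was present in CSN. The summed level of 12 oligodendrocyte markers was 136949 to 2320070 in control cells and 4774 to 346346 in CSN, that of 14 microglia markers 41750 to 417675 and 3954 to 24236, and that of 12 astrocyte markers 38118 to 448158 and 19314 to 131253. The summed level of 15 neuron markers was 97679 to 501456 in control cells and 369498 to 615860 in CSN, so neuronal RNA was present in every control library. In pair 13 at 105 days the oligodendrocyte sum was higher in CSN (346346) than in control cells (169103), the only such pair. The astrocyte sum was higher in CSN in 3 of 14 pairs, pair 9 at 90 days and pairs 12 and 13 at 105 days. That of red blood cell markers was higher in CSN only in pair 12 at 105 days. In pair 9 at 105 days the neuron sum of control cells was the lowest of all. The share of values from the mitochondrial genome was 8.71% ± 1.86 (SD, n = 14) in CSN and 1.44% ± 0.56 in control cells, without overlap (exact two-sided sign-flip permutation test over the pairs, p = 0.0001221, the smallest that 14 pairs allow). In such bulk samples fewer cells of a type and less RNA per cell cannot be told apart, and the part of these sums and of the mitochondrial share in the differences below was not tested, except where a value is given.

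**Figure D1:**
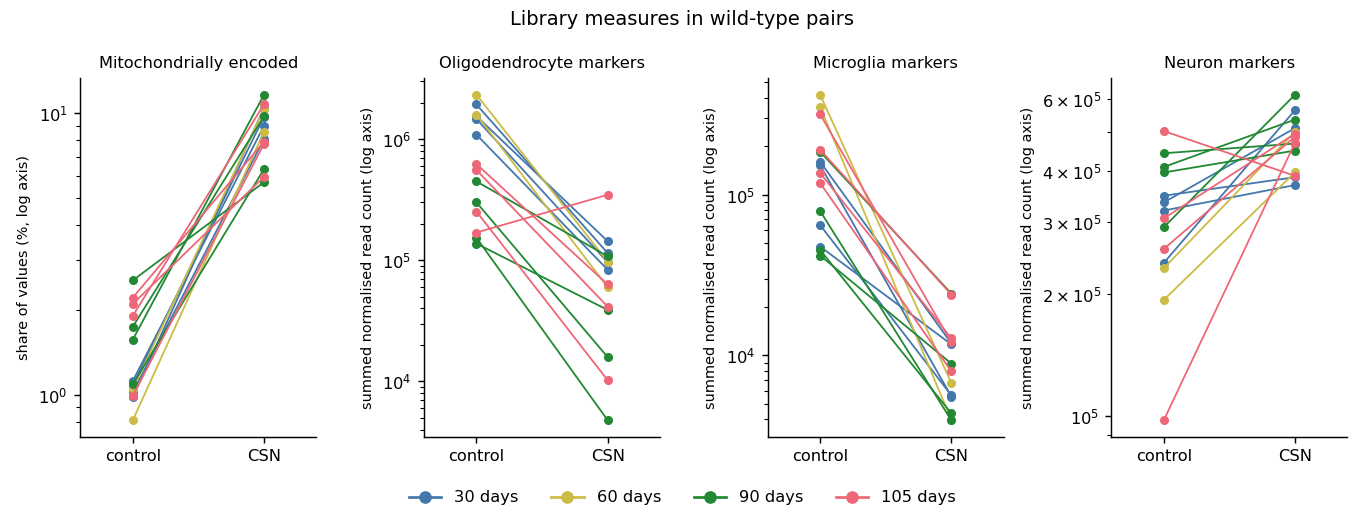
Mitochondrially encoded share (%) and summed normalised read counts of oligodendrocyte, microglia and neuron markers in control cells and CSN, on log axes. Each line joins the 2 libraries of a pair and colours give the age. The mitochondrial share was higher and the microglia sum lower in CSN in all 14 pairs, and the oligodendrocyte sum was lower in 13.

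The 4 genes that mark CSN were all far higher in CSN, with no overlap between the cell types. Bcl11b (chr12:107910403-108003602, minus strand) ranged from 7517 to 14371 (median 10419) in CSN and from 33.4 to 714 (median 157) in control cells. Its difference was 5.65 ± 0.23 (SE) on the log2 scale (adjusted p = 4.52e-13), and the lowest CSN library stood over 10 times above the highest control library. Fezf2 (chr14:12342094-12348189, minus strand), the factor upstream of it, ranged from 6081 to 11234 (median 7162) in CSN and from 33.1 to 548 (median 223) in control cells, a difference of 5.11 ± 0.24. Crym (chr7:120186380-120202111, minus strand), which encodes the thyroid hormone binding protein mu-crystallin, ranged from 7899 to 14873 (median 10066) in CSN and from 87.2 to 1330.1 (median 408) in control cells, a difference of 4.74 ± 0.27. Pcp4 (chr16:96467606-96525793, plus strand), a small modulator of calmodulin, shares 23.7% of its annotated exon bases with Igsf5 on the same strand and ranged from 21680.4 to 64572 (median 39637) in CSN and from 335 to 6104 (median 2109) in control cells, a difference of 4.23 ± 0.26. The spread lay mainly in the control cells, where Bcl11b differed by more than 20 times between the lowest and the highest library and CSN by less than 2 times.

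The sequence upstream of the start of transcription is shown for 2 genes that were higher in CSN, Pcp4 and Cabp7, and 2 that were lower, Rasgrf2 and Plk5. They are the 250 bases before the RefSeq start on GRCm38.p6, read on the strand of the gene. The 4 genes belong to the 24 genes of largest change, and their windows hold no annotated exon. They are examples, as other genes of the 24 meet this condition too. Of those 24 genes, 16 matched the RefSeq promoter table and 11 had a window clear of exons. Capitals mark 3 motifs searched on both strands: the TATA box (TATAAA), the CCAAT box (CCAAT) and the GC box (GGGCGG), which occur in 12.4%, 33.8% and 32.7% of 32851 windows of the same length. The window of Pcp4 lies at chr16:96467356-96467605 (plus strand), that of Cabp7 at chr11:4747180-4747429 (minus strand), that of Rasgrf2 at chr13:92131829-92132078 (minus strand) and that of Plk5 at chr10:80356209-80356458 (plus strand).
Pcp4: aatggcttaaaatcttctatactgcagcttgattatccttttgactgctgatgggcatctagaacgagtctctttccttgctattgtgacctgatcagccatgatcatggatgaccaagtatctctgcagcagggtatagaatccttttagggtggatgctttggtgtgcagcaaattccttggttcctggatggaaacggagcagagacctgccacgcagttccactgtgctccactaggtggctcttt
Cabp7: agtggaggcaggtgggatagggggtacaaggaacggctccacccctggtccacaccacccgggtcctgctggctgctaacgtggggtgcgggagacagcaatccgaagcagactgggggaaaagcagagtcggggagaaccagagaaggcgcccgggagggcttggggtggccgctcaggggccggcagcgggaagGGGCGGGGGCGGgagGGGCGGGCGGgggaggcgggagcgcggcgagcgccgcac
Rasgrf2: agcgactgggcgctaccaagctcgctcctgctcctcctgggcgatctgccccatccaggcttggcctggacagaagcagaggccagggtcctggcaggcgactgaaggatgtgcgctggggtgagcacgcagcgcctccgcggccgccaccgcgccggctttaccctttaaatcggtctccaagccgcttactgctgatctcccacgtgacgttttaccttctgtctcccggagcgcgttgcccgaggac
Plk5: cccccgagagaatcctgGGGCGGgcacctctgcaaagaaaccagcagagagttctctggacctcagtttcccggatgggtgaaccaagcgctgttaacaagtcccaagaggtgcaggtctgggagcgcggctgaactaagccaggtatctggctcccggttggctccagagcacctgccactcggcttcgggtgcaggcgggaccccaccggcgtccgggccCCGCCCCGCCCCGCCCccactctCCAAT
The windows of Pcp4 and Rasgrf2, whose genes differed in opposite directions, hold none of the 3 motifs. That of Cabp7 holds 4 GC boxes, whose first bases lie 54, 48, 39 and 35 bases before the start, with the last 2 overlapping. That of Plk5 holds GC boxes at 233, 28, 23 and 18 bases, the last 3 on the other strand and overlapping, and a CCAAT box at 5 bases. Over all 11 genes with a window clear of exons, GC boxes occurred in 3 of 4 genes that were higher and 1 of 7 that were lower, CCAAT boxes in 2 and 2, and TATA boxes in 0 and 2. A match is a match of letters only, and these counts were not tested.

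**Figure D2:**
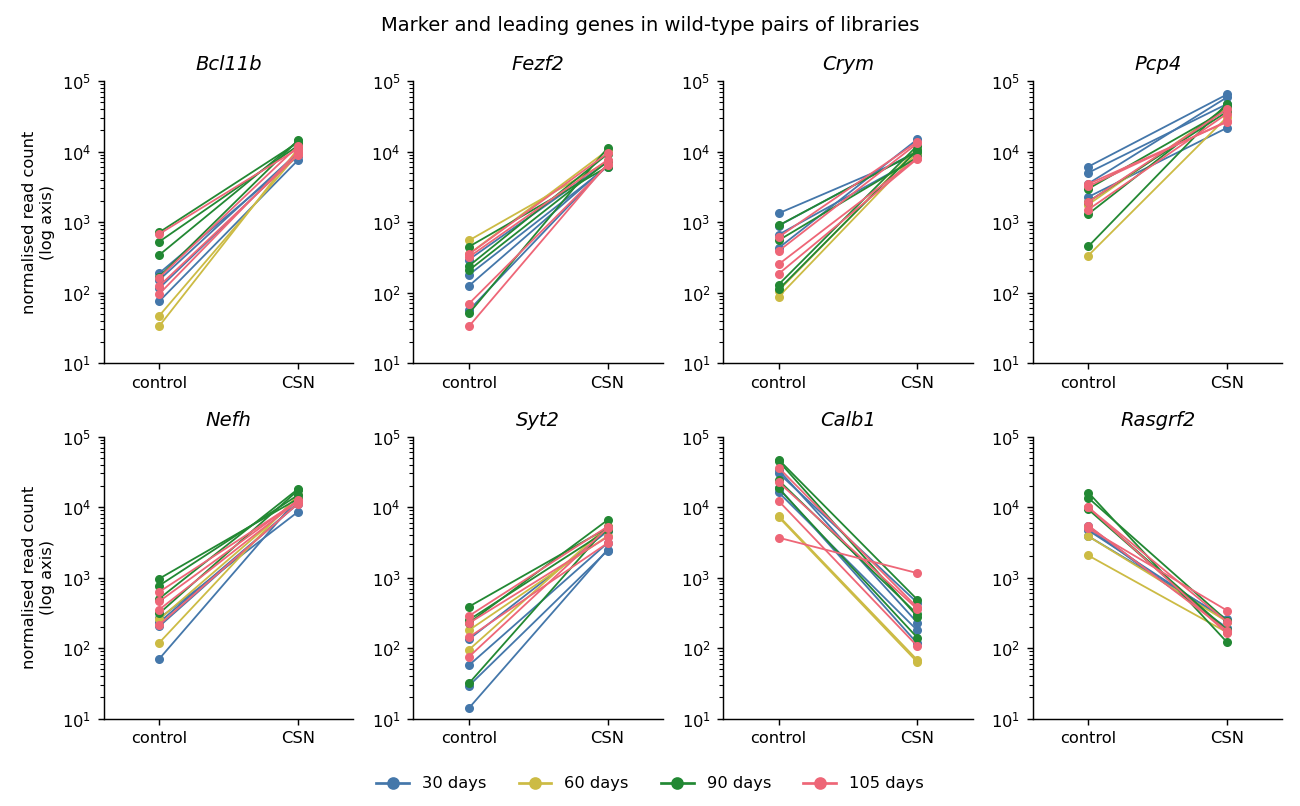
Normalised read count (log axis) of 6 genes that were higher and 2 that were lower in CSN, with a line for each of the 14 pairs and colours for age. Every line rises from control to CSN for Bcl11b, Fezf2, Crym, Pcp4, Nefh and Syt2 and falls for Calb1 and Rasgrf2; pair 9 at 105 days has the shallowest fall in Calb1.

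Over all genes, 11409 of 20594 passed (55.4%), 5461 higher in CSN (26.5%) and 5948 lower (28.9%), so that a count of members that passed has to be read against these shares. A difference of more than 2-fold was found in 4644 of these (22.6% of all genes tested), the same sign in all 14 pairs in 3103 genes (15.1%, or 8.09% higher and 6.97% lower), and levels that did not overlap between the 14 CSN and the 14 control libraries in 1036 (5.03%), of which 609 were higher (2.96%) and 427 lower (2.07%). The median difference over all genes was -0.03. When each library was scaled to its total without mitochondrial genes, that median became 0.11 and the calls 6768 higher and 4919 lower, so that 57.9% of the calls were rises instead of 47.9%. The members of the lists below were chosen with earlier results of these data known, so their counts describe and do not test the lists. The filter on low values left out 12 list members, among them Nxph4, Slc32a1, Kcnk9, Hcn4, Drd2, Chrm4, Nts, Trh, Gdnf, mt-Nd4l and Trib3, which were not tested. Where a count of 5 or fewer is spelled out by name, the names were taken after their values were seen. Among the genes so named, Arc, Atp5g3, Cacna1c, Cacnb2, Dctn3, Gabbr1, Hs3st4, Moxd1, Ndufa5, Npas4 and Tubb4a no longer passed under at least 1 alternative setting or without at least 1 pair, and no named gene changed its sign.

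Among genes with the same sign in all 14 pairs, the 12 largest rises were Bcl11b, Nefh, Fezf2, Syt2, Crym, Slc5a5, Scn4b, Nrip3, Fam84b, Pcp4, Coro6 and Cabp7, and none of them overlapped between the cell types. Nefh, the heavy neurofilament subunit of large axons, ranged from 8545 to 17982 (median 12604) in CSN and from 70.2 to 965 (median 287) in control cells, a difference of 5.20 ± 0.21 (adjusted p = 4.52e-13). Syt2, a fast calcium sensor of transmitter release, ranged from 2413 to 6551 (median 4627) in CSN and from 14.1 to 386 (median 138) in control cells, a difference of 4.76 ± 0.21. For both genes the lowest CSN library stood several times above the highest control library. Slc5a5, the sodium iodide symporter of the thyroid, ranged from 889 to 1855 (median 1431) in CSN and from 3.46 to 148 (median 15.6) in control cells, a difference of 4.54 ± 0.24. Scn4b, a sodium channel beta subunit, ranged from 2658 to 7879.6 (median 4638) in CSN and from 26.8 to 675 (median 210.3) in control cells, a difference of 4.46 ± 0.26. Nrip3 (log2 difference 4.42), Fam84b (4.36), which shares 41.8% of its exon bases with a transcript of the other strand, Coro6, a member of the coronin family of actin-binding proteins (4.10), and Cabp7, a calcium-binding protein of the calmodulin family (3.85), completed the group.

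The 12 largest falls included Calb1, Ccl4, Slc30a3, Rasgrf2, Plk5, Il1a, Tmem215, Penk, Car4, Ccl3 and Ly6c1. Calb1 (chr4:15881264-15908064), the calcium buffer calbindin, ranged from 63.3 to 1158 (median 255) in CSN and from 3681 to 47159 (median 20682) in control cells, a difference of -6.11 ± 0.30 (adjusted p = 2.32e-12). In pair 9 at 105 days Calb1 stood at 1158 in CSN and 3681 in control cells (log2 difference -1.64), while the other 13 pairs lay between -7.16 and -5.85. That CSN value was the highest and that control value the lowest of all pairs. The control cells of this pair also had the lowest neuron sum, whose part in the Calb1 difference was not tested. Rasgrf2, an exchange factor for Ras, ranged from 121 to 341 (median 190.4) in CSN and from 2059 to 16094 (median 5419.7) in control cells, a difference of -4.76 ± 0.23. Slc30a3, which loads zinc into synaptic vesicles, ranged from 6.49 to 633 (median 187) in CSN and from 2945 to 8687 (median 6149) in control cells, a difference of -4.80 ± 0.26. Neither overlapped. Penk, the enkephalin precursor (-4.49), the polo-like kinase family gene Plk5 (-4.72), Tmem215 (-4.59) and the carbonic anhydrase Car4 (-4.39) were lower in all pairs without overlap. The remaining falls were the chemokines Ccl4 (-5.22) and Ccl3 (-4.37) and the cytokine Il1a (-4.67), which microglia produce, and the endothelial surface gene Ly6c1 (-4.34). Il1a and Ccl3 overlapped between the cell types (39.7 to 33746 in control cells and 6.67 to 1906 in CSN for Il1a). These fell together with the microglia sum, which was lower in CSN in 14 of 14 pairs, and the vascular sum, lower in 14 of 14. Ccl3 and Ccl4, and Ly6c1 and its neighbours, belong to families of similar genes, so the split of reads between relatives is uncertain.

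Of 23 CSN markers, 22 were higher in CSN and 1 lower, with a median difference of 2.40. Besides the 4 above, the largest included Npr3, a clearance receptor for natriuretic peptides (3.35 ± 0.20), Igfbp4, a binding protein of insulin-like growth factors (2.81 ± 0.16), and the netrin-G1 gene Ntng1 (2.49 ± 0.13). Ntng1 ranged from 2559.7 to 4463 (median 3540.2) in CSN and from 414 to 1087 (median 573) in control cells. Bhlhe22, a helix-loop-helix factor of projection neurons, was the exception (-0.77 ± 0.19, adjusted p = 0.00194) and was higher in CSN in 3 of 14 pairs. Of the 23 markers, 15 did not overlap between the cell types.

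Genes of upper-layer and callosal neurons showed the opposite: 16 of 20 were lower in CSN and 1 was higher, with a median of -1.73. Nectin3, an adhesion molecule (-3.67 ± 0.18), ranged from 115 to 456 (median 256) in CSN and from 2196 to 8487 (median 3326) in control cells. The transcription factors Cux2 (-3.20 ± 0.21) and Cux1 (-1.89 ± 0.15), the growth factor Ptn (-2.57 ± 0.14) and Plxnd1, a plexin receptor (-2.56 ± 0.19), were lower in all 14 pairs and none overlapped. Dkk3, a secreted Dickkopf protein, was the only one higher (0.79 ± 0.14, adjusted p = 5.48e-05). The summed level of the list was 38573 to 63853 in CSN and 85411 to 187380 in control cells. Layer 6 markers were split, with Foxp2 (2.34), Syt6 (0.99) and Hs3st4 (0.67) higher, Rprm (-1.27), Tbr1 (-0.64) and Moxd1 (-0.57) lower, and the other 5 of the 11 tested not passing. Foxp2 ranged from 907 to 2041 (median 1455) in CSN and from 87.5 to 569 (median 232) in control cells and alone of these 11 did not overlap.

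Markers of other cell types were nearly all lower in CSN. All 14 microglia markers were lower (median -3.88), among them the purine receptor P2ry12 (-4.07 ± 0.26), Gpr34 (-4.07 ± 0.25) and the protease Ctss (-4.32 ± 0.28), and 13 of them in every pair. Ctss ranged from 367 to 4346 (median 793) in CSN and from 5163 to 79654 (median 21692) in control cells, so it was not at 0 in any CSN library. All 12 oligodendrocyte markers were lower (median -3.58), but none in all 14 pairs. Ermn, which encodes a cytoskeletal protein of myelinating cells, ranged from 100.2 to 6511 (median 715) in CSN and from 3356 to 30074 (median 13485) in control cells, and was lower in 13 of 14 pairs. All 8 markers of oligodendrocyte precursors (median -2.89), 12 of 14 vascular markers (-2.66) and 4 of 5 red blood cell markers (-2.51) were lower; the 4 are Hba-a1, Hba-a2, Hbb-bs and Hbb-bt, nearly identical in pairs, so that their single values are uncertain. No marker of these lists was at 0 in all libraries of a cell type.

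The astrocyte and the GABAergic list each held an exception that was high in CSN. Of 12 astrocyte markers 11 were lower (median -1.96), such as the gap junction genes Gja1 (-3.51 ± 0.37) and Gjb6 (-3.46 ± 0.35), but S100b, a calcium-binding protein used as an astrocyte marker, ranged from 5011 to 15928 (median 10168) in CSN and from 319 to 3877 (median 1549) in control cells. It was higher in all 14 pairs (2.83 ± 0.26, adjusted p = 1.78e-08) with no overlap. Of 14 GABAergic markers tested 10 were lower (median -1.83), including Gad1, which makes GABA (-2.57 ± 0.39). Pvalb, the calcium buffer of fast-spiking interneurons, was instead higher in 13 of 14 pairs (2.69 ± 0.30, adjusted p = 2e-07) and ranged from 72.8 to 1310.2 (median 358) in CSN and from 2.66 to 409 (median 10.6) in control cells. The 2 ranges of Pvalb overlapped. Gad1 ranged from 17.6 to 528 (median 43.6) in CSN and from 61.4 to 3475 (median 768) in control cells.

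**Figure D3:**
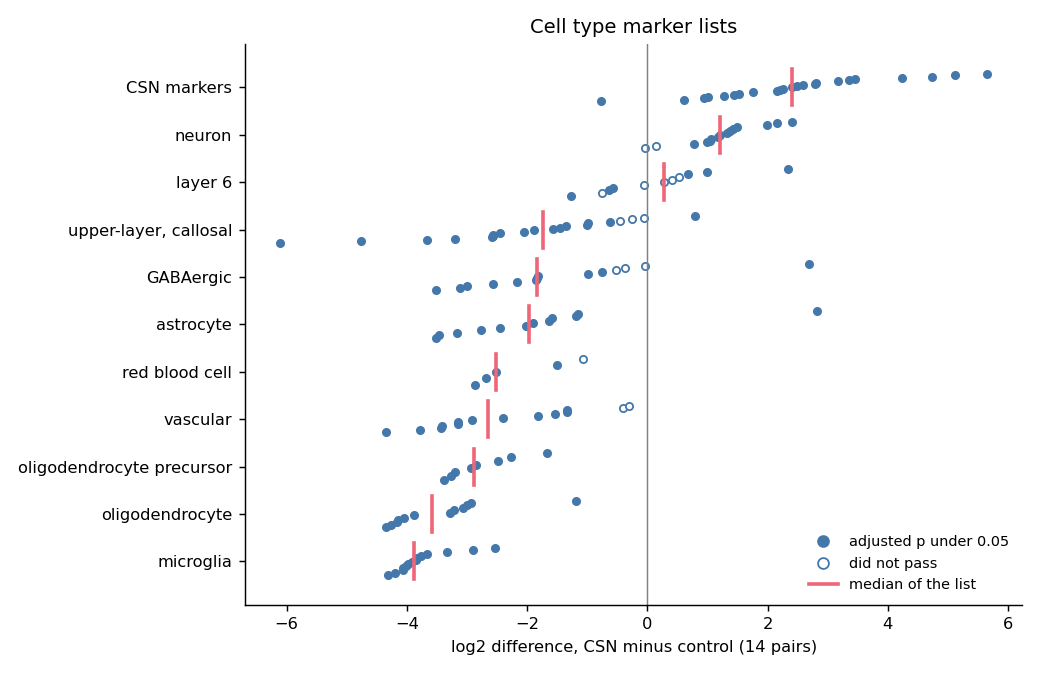
Log2 difference between CSN and control cells over 14 pairs for each tested member of 11 marker lists, with a filled point where the adjusted p was under 0.05 and a bar at the median of the list. CSN markers centre on 2.40 and microglia markers on -3.88; S100b and Pvalb stand to the right of the astrocyte and GABAergic markers.

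General neuron genes were moderately higher in CSN, 13 of 15 with a median of 1.21. Tubb3, the neuronal beta-tubulin, ranged from 16078 to 34429 (median 21647) in CSN and from 1069 to 6694 (median 4546) in control cells (2.40 ± 0.18), and Gap43, a protein of growing and plastic axon terminals, from 17889.6 to 39593 (median 26876) in CSN and from 1831 to 12890.2 (median 5766) in control cells (2.16 ± 0.19). Both were higher in all 14 pairs without overlap. As the neuron sum itself was higher in CSN in 13 of 14 pairs (median log2 ratio 0.65), the differences of neuronal genes below are those of CSN against a mixture with fewer neuronal transcripts.

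Genes of the axon's cytoskeleton were higher in CSN, 21 of 26 with a median of 1.03, while Tubb4a (-0.97), a tubulin also made by oligodendrocytes, whose marker sum was lower in CSN in 13 of 14 pairs, and the stathmin Stmn4 (-0.71) were lower. Of the neurofilament subunits, which set the calibre of large axons, Nefh was followed by Nefm (3.71 ± 0.18), Ina (2.92 ± 0.14) and Nefl (2.31 ± 0.20), all higher in 14 of 14 pairs and none overlapping. Nefm ranged from 8006 to 20939 (median 12252) in CSN and from 322 to 2292 (median 954) in control cells, and Nefl from 16932 to 27183 (median 22044) in CSN and from 921 to 7987 (median 5210.5) in control cells. Nefl shares 32.8% of its annotated exon bases with its neighbour Nefm, which is read from the opposite strand, and these strandless libraries cannot fully separate them. The microtubule-associated proteins Map1a (1.96 ± 0.13) and Map1b (1.89 ± 0.13) were also higher in all pairs. Of 22 motor and adaptor genes of axonal transport, 16 were higher and 1, the dynactin subunit Dctn3 (-0.42), lower, with a median of 0.68. Kif5a, a neuronal kinesin, ranged from 9821 to 26145 (median 13479) in CSN and from 1562 to 5402 (median 2856) in control cells (2.26 ± 0.16), followed by Kif1a, which carries synaptic vesicle precursors (1.36 ± 0.12), Dctn1, the largest dynactin subunit (1.26 ± 0.12), and the dynein heavy chain Dync1h1 (1.18 ± 0.10).

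Potassium channels and their partners differed in both directions, with 22 of 41 tested higher and 10 lower and a median of 0.49. Among the small-conductance calcium-activated channels, Kcnn2 ranged from 7246 to 11191 (median 8773) in CSN and from 1159.6 to 3209.7 (median 1643) in control cells (2.30 ± 0.12), and Kcnn1 was likewise higher (2.21 ± 0.25), whereas Kcnn3 was lower (-1.79 ± 0.27). Among the Kv3 channels, which allow fast firing, Kcnc2 ranged from 4.17 to 209 (median 60.2) in CSN and from 465 to 4423 (median 1713) in control cells (-4.28 ± 0.26) and Kcnc1 was lower too (-1.45 ± 0.18). Kcnc4 (0.73 ± 0.15) was higher. The delayed rectifiers Kcna1 (1.89 ± 0.12) and Kcna2 (1.71 ± 0.14) and the subunit Kcnab2 (2.43 ± 0.17) were higher without overlap. Kcnip2, a partner of A-type channels, went the other way, from 35 to 552 (median 129) in CSN and from 1340.2 to 4375 (median 2794) in control cells (-3.76 ± 0.24).

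Of 26 sodium and calcium channel genes, 17 were higher in CSN and 5 lower (median 0.67). The pore-forming sodium channel genes Scn1a (2.15 ± 0.13) and Scn8a (1.40 ± 0.13) were higher in all pairs without overlap, and Scn1a ranged from 14942 to 27926 (median 21685) in CSN and from 2851 to 7606 (median 4766) in control cells. The beta subunits parted: Scn4b and Scn2b (1.32 ± 0.18) were higher and Scn3b lower (-1.80 ± 0.18), at 394 to 785 in CSN and 773 to 4495 in control cells. Cacna1h, a T-type calcium channel, ranged from 1507 to 3608 (median 3021) in CSN and from 79.7 to 707 (median 294) in control cells (3.10 ± 0.21). Of the alpha2-delta subunits, Cacna2d2 was higher (2.63 ± 0.18) and Cacna2d1 lower (-0.57 ± 0.15). The other members lower in CSN were Cacna1c (-0.55), Cacnb2 (-0.48) and Cacng3 (-0.96).

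**Figure D4:**
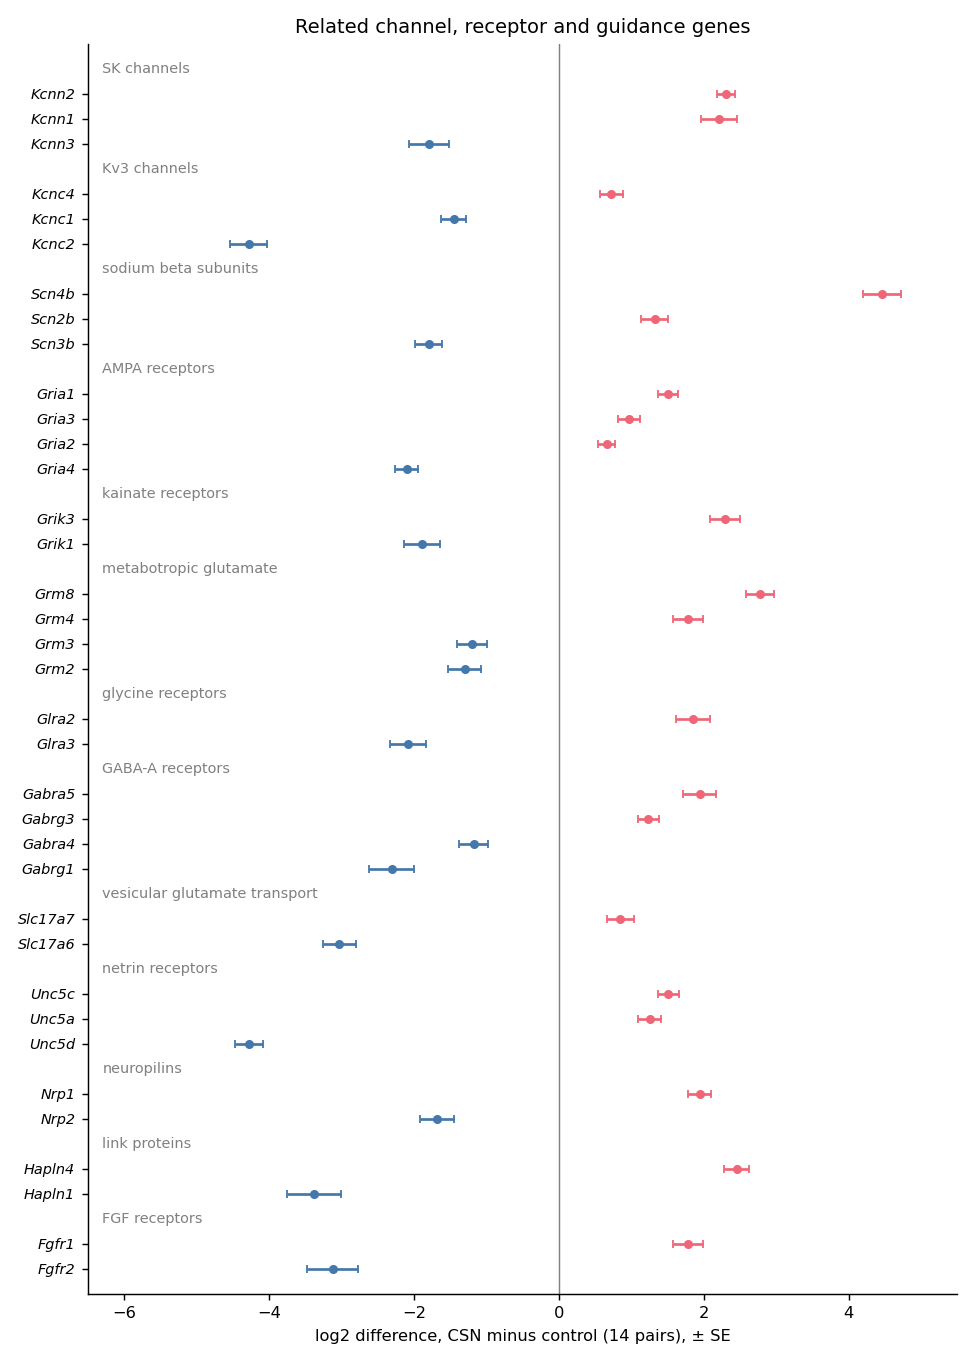
Log2 difference between CSN and control cells with its SE over 14 pairs for related channel, receptor, transporter, guidance and matrix genes of 13 families. Points to the right of 0 were higher in CSN; the families were picked, after their values were seen, for members on both sides of 0.

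Among 24 glutamate receptor genes, 16 were higher in CSN and 5 lower (median 0.72). Of the AMPA receptor subunits, Gria1 ranged from 9835 to 14086 (median 11717) in CSN and from 1792 to 7361 (median 3959) in control cells (1.51 ± 0.14), and Gria3 (0.97 ± 0.15) and Gria2 (0.66 ± 0.12) were higher by less. Gria4 was lower, from 817 to 1632 (median 1302) in CSN and from 3177 to 8043 (median 5521) in control cells (-2.10 ± 0.16), and did not overlap. The kainate receptors showed the same split, with Grik3 higher (2.29 ± 0.21) and Grik1 lower (-1.89 ± 0.25). The NMDA receptor subunit Grin1 was higher in all pairs (1.60 ± 0.15), and Grin2c was lower (-1.52). Of the metabotropic receptors that inhibit release, Grm8 ranged from 1679 to 3296 (median 2108) in CSN and from 142 to 874 (median 313) in control cells (2.77 ± 0.19) and Grm4 was higher (1.78 ± 0.21), whereas Grm2 (-1.30 ± 0.23) and Grm3 (-1.20 ± 0.20) were lower.

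Receptors for GABA and glycine showed no common direction, with 4 of 17 higher, 7 lower and a median of 0.02. Those higher were Gabra5, the alpha5 subunit (1.94 ± 0.23), Gabrg3 (1.24 ± 0.14), the glycine receptor subunit Glra2 (1.85 ± 0.23) and Gabbr1 (0.44). Gabra5 ranged from 3003 to 5970.2 (median 4409) in CSN and from 213 to 2634 (median 1399) in control cells. Lower were, among others, Gabra4 (-1.17 ± 0.20), Gabrg1 (-2.31 ± 0.31) and Glra3 (-2.08 ± 0.24), which ranged from 1.09 to 28.3 (median 12.5) in CSN and from 30.3 to 609 (median 164) in control cells.

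Of 36 receptors for modulators that were tested, 19 were higher and 6 lower in CSN (median 0.58). Htr1f, an inhibitory serotonin receptor, ranged from 715 to 2269.9 (median 1457) in CSN and from 16.6 to 443 (median 67.8) in control cells (3.62 ± 0.22). Chrna4, a nicotinic acetylcholine receptor subunit, ranged from 1476 to 2694 (median 2209) in CSN and from 24.8 to 729 (median 191) in control cells (3.20 ± 0.25), and Sstr2, a receptor for somatostatin, from 1523 to 2745 (median 1822) in CSN and from 18.2 to 510.0 (median 206) in control cells (3.28 ± 0.29). These 3 were higher in all pairs without overlap. The serotonin receptors Htr1b (2.72 ± 0.26) and Htr4 (2.02 ± 0.20) were also higher, with overlap in both. Npy1r, a receptor for neuropeptide Y, was lower in all pairs (-2.00 ± 0.19).

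The machinery of transmitter release was mostly higher, 17 of 32 genes, with 5 lower and a median of 0.55. Besides Syt2, Cplx1, a complexin that clamps vesicle fusion, ranged from 19043 to 40671 (median 27334) in CSN and from 1825 to 7739 (median 3512) in control cells (2.86 ± 0.15), and the vesicle protein Sv2c (3.36 ± 0.18) and the vesicle SNARE Vamp1 (2.15 ± 0.15) were higher without overlap. Rims3, a protein of the release site, ranged from 108 to 849.7 (median 311) in CSN and from 2009 to 9719.9 (median 4413) in control cells (-3.57 ± 0.24). Slc17a6, a vesicular glutamate transporter, was lower (-3.03 ± 0.23) while its relative Slc17a7, taken after its value was seen, was higher (0.85 ± 0.19). The other genes lower were Syt10 (-1.08), Syt13 (-0.74) and Stx1a (-0.58).

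Of 17 neuropeptide and secretory granule genes tested, 5 were higher and 10 lower (median -0.66). The granin genes Chga (2.54 ± 0.15), Vgf (2.54 ± 0.21) and Scg2 (0.88), the PACAP precursor Adcyap1 (1.82 ± 0.22) and Cort (1.16) were higher, and Chga ranged from 4633 to 8949 (median 6286) in CSN and from 379.6 to 2124 (median 1185) in control cells. Penk, Npy (-3.51 ± 0.55) and Crh (-1.66 ± 0.24) were lower. Npy, a peptide of interneurons, ranged from 0 to 203 (median 37.3) in CSN and from 73.6 to 9559 (median 712) in control cells, a wide spread among the control libraries. Calcium sensors and buffers were split 8 higher and 6 lower of 20. Beside Pcp4, S100b and Calb1, the neuronal calcium sensor Ncs1 was higher (1.88 ± 0.18) and its relatives Hpca (-2.61 ± 0.22) and Ncald (-2.68 ± 0.25) were lower.

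Axon guidance genes, which steer axons during development and shape synapses later, were higher in 23 of 44 cases and lower in 13 (median 0.55). Unc5d, a netrin receptor, ranged from 19.1 to 159.9 (median 66.8) in CSN and from 949 to 3462 (median 2035) in control cells (-4.27 ± 0.19, adjusted p = 1.41e-12), while Unc5c (1.51 ± 0.14) and Unc5a (1.25 ± 0.16) were higher. Sema3e, a secreted semaphorin, ranged from 1558 to 2666 (median 2033) in CSN and from 84.9 to 261 (median 146) in control cells (3.52 ± 0.16), and its receptor Plxnd1 from 11 to 57.8 (median 31.6) in CSN and from 124 to 612 (median 384) in control cells (-2.56 ± 0.19). The RNA of the ligand was thus high where that of the receptor was low, and the reverse, with no overlap in either. The median of Plxnd1 in CSN lay under the added 34.6, so its difference is shrunk. The vascular sum was also lower in CSN in 14 of 14 pairs, and its part in the Plxnd1 difference was not tested. Sema3a was lower in CSN (-2.69 ± 0.21). Its co-receptor Nrp1 (1.94 ± 0.16) and the plexin Plxna1 (1.56 ± 0.14) were higher, and Nrp2 was lower (-1.68 ± 0.23).

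Adhesion molecules were higher in 17 of 29 cases and lower in 5 (median 0.81). Cdh13, a cadherin without a cytoplasmic part, ranged from 4288 to 7534 (median 5314) in CSN and from 386 to 2297 (median 867) in control cells (2.40 ± 0.18), and the contactins Cntn6 (2.26 ± 0.17) and Cntn2 (1.63 ± 0.14) and the protocadherin Pcdh17 (1.50 ± 0.11) were higher in all pairs. The 5 lower were Cdh12 (-1.79 ± 0.16), Cdh10 (-1.15 ± 0.13), Pcdh20 (-1.93), Pcdh9 (-0.83) and Pcdh10 (-0.67). Of 29 growth factor genes tested, 9 were higher and 10 lower (median -0.20). Fgf9 (1.61 ± 0.16) and the receptor Fgfr1 (1.78 ± 0.20) were higher, and Fgfr2, a receptor also found in glia, was lower (-3.12 ± 0.35). Of 18 genes of the extracellular matrix and the net around neurons, 5 were higher and 10 lower (median -0.80). Col6a1, a collagen chain, ranged from 1565 to 3629 (median 2386) in CSN and from 57.5 to 860.2 (median 202) in control cells (3.28 ± 0.25), and Col19a1 from 13.2 to 105 (median 27.3) in CSN and from 262 to 987 (median 692) in control cells (-3.27 ± 0.19). The link proteins, which tie hyaluronan to proteoglycans, parted as well, with Hapln4 higher (2.45 ± 0.17) and Hapln1 lower (-3.38 ± 0.37). The remaining 3 that were higher were Chst8 (1.87), Has3 (1.55) and Acan (0.61).

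Of 52 transcription factors of cortical neurons, 24 were higher and 17 lower (median 0.29), and 15 did not overlap. Tox, a factor of the high-mobility group, ranged from 3058 to 5050.3 (median 3921) in CSN and from 191 to 879.8 (median 533) in control cells (2.92 ± 0.16). Nfib was higher in all pairs (1.77 ± 0.13).

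Genes of the mitochondrial genome were all higher in CSN, 12 of 12 tested with a median of 2.50, and in every pair. mt-Nd1, a complex I subunit, ranged from 300568 to 952644 (median 583604) in CSN and from 45418 to 115007 (median 82922) in control cells (2.78 ± 0.17), and mt-Co1, a complex IV subunit, differed by 2.33 ± 0.14. The 45 nuclear genes of the respiratory chain did not share this: 5 were higher, 11 lower and the median was -0.11, or 0.09 after scaling without mitochondrial genes. The 5 were Cox5b (0.68 ± 0.13), Atp5g1 (0.53), Ndufa5 (0.51), Ndufa10 (0.40) and Atp5g3 (0.37). Among the lower, Sdhd differed by -1.19 ± 0.17. Of 21 glycolysis genes, 8 were higher and 6 lower (median 0.04), with the glucose transporter Slc2a1, which endothelium and glia also express, lower (-2.07 ± 0.19) and the neuronal enolase Eno2 higher (1.48 ± 0.15).

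Of 21 genes of cholesterol supply, 5 were higher, among them the regulator Srebf2 (0.89 ± 0.14) and the synthase gene Hmgcs1 (0.71). A further 7 were lower, such as Idi1 (-1.09 ± 0.22), and the list median was -0.11, or 0.08 after scaling without mitochondrial genes. Srebf2 ranged from 2711 to 5328 (median 3469.8) in CSN and from 845 to 3372 (median 1921) in control cells. Proteasome genes were lower in 25 of 34 cases and higher in none (median -0.71, or -0.51 after scaling without mitochondrial genes). Psmb2, a core subunit, ranged from 3359 to 9172 (median 5215) in CSN and from 9167 to 19123 (median 11381) in control cells (-1.25 ± 0.12), and the immunoproteasome subunit Psmb8, which microglia express, differed by -3.27 ± 0.35.

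In the list of chaperones and the unfolded protein response, 9 of 31 tested were higher and 16 lower (median -0.47). Creb3l1, a membrane-bound transcription factor of the CREB3 family, ranged from 449 to 1331 (median 701) in CSN and from 8.92 to 478 (median 39) in control cells (3.22 ± 0.27) and was higher in all 14 pairs. Creb3, named here because the series title names it, was lower in 13 of 14 pairs (-1.21 ± 0.17). It ranged from 1833 to 3740.1 (median 2586) in CSN and from 2747 to 10148 (median 6609) in control cells. Creb3 shares 15.2% of its annotated exon bases with Tln1 and 5.61% with Gba2, both on the opposite strand, which these strandless libraries cannot fully separate. Xbp1, a main factor of the unfolded protein response (-1.99 ± 0.18), the chaperone partner Dnajb9 (-1.54 ± 0.13) and the small heat shock protein Hspb1 (-2.26 ± 0.21) were lower in all pairs, and Hspa4l was higher (1.02 ± 0.12). Of 18 immediate early genes, 10 were lower and 5 higher (median -0.68). Egr2 ranged from 25.4 to 302 (median 119) in CSN and from 998 to 9971 (median 1566) in control cells (-3.90 ± 0.23) and Fos from 905 to 3721 (median 2178) in CSN and from 2269 to 87476 (median 13092) in control cells (-2.42 ± 0.29). Those higher were Egr4 (1.76 ± 0.25), Nr4a3 (1.15), Homer1 (0.75), Arc (0.64) and Npas4 (0.49). Of 33 ALS-linked genes, 12 were higher and 9 lower (median 0.17); besides Nefh, Kif5a and Dctn1, Nek1 was higher (1.49 ± 0.18) and Hnrnpa2b1 was lower (-0.90 ± 0.11).

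The comparison was also made at each age. At 30 days 6808 genes passed (33.1%), at 60 days 5761 (28%), at 90 days 4281 (20.8%) and at 105 days 4954 (24.1%), with 4, 2, 4 and 4 pairs. Single pairs weighed on these counts, which became 2554 at 90 days without pair 6 and 2777 at 105 days without pair 9. At 60 days, leaving out either pair left 1 pair, whose spread was taken from the other ages, and 1436 or 2598 genes. The median size of the difference over all genes, without its sign, was 0.60, 0.79, 0.47 and 0.53. A size without sign grows with noise, and 60 days has 2 pairs, so its value is not comparable with those of the other ages. The microglia sum of control cells was also highest at 60 days (350341 and 417675), and its part was not tested. The 4 markers kept their direction at each age: Bcl11b differed by 5.76, 7.08, 5.0 and 5.48 at 30, 60, 90 and 105 days, Fezf2 by 5.19, 4.20, 5.18 and 5.41, Crym by 3.69, 6.30, 4.91 and 4.84 and Pcp4 by 3.48, 5.47, 4.91 and 3.70. The median of the CSN markers was 2.29, 2.67, 2.48 and 2.48, and that of the upper-layer markers -1.63, -1.72, -2.14 and -1.71. The median of the microglia markers was -3.53, -5.93, -3.21 and -3.73. The median of the cholesterol genes was -0.77 and -1.14 at 30 and 60 days and 0.38 and 0.22 at 90 and 105 days, a contrast that was not tested for the list. The oligodendrocyte sum of control cells, which moves with age too, was 1085730 to 2320070 at 30 and 60 days and 136949 to 620248 at 90 and 105 days, and its part in these values was not tested.

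The difference between CSN and control cells varied over the 4 ages for 2 genes of 20594 (0.00971%), Tmem163 and Asrgl1. At an unadjusted p under 0.05 stood 2587 genes (12.6%), a larger share than the 0.05 reached when no gene differs. The count of 2 that passed rose to 336 without pair 12 of 105 days and lay between 1 and 10 without any other single pair. In pair 12 of 105 days the neuron sum was lower in CSN (389134) than in control cells (501456), the only such pair. Its red blood cell sum was higher in CSN (2814 against 293), and the part of these sums in the count was not tested. Tmem163 (chr1:127486546-127679548), which encodes a zinc transporter, differed by 0.18, -0.09, 2.99 and 2.54 at 30, 60, 90 and 105 days (adjusted p = 0.00525 over the ages). Its CSN levels stayed at 2495 to 5573. In control cells it stood at 2135, 2488, 4506 and 5755 at 30 days and 2633 and 4088 at 60 days, against 193, 322, 519 and 777 at 90 days and 421, 462, 766 and 928 at 105 days. Asrgl1 (chr19:9109868-9135636), an asparaginase, differed by -1.83, -2.33, 0.27 and 0.16 (adjusted p = 0.00962). In control cells it stood at 3106, 3496, 3634 and 4504 at 30 days and 7203 and 9556 at 60 days, against 938, 1190.2, 1340.3 and 1904 at 90 days and 882, 1441, 2547 and 3112 at 105 days. In Tmem163 the early and the late control libraries did not overlap. In Asrgl1 the lowest early control library and the highest late one were level, and the mean in CSN was 1011 at 30 days, 1629 at 60 days, 1633 at 90 days and 2135 at 105 days, so values of both cell types differed over the ages. Without a filter on low values neither gene passed (adjusted p = 0.0915 for both), and without pair 1 of 60 days Asrgl1 did not (0.0757). The labels give no date or batch, so age and such a batch cannot be told apart.

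**Figure D5:**
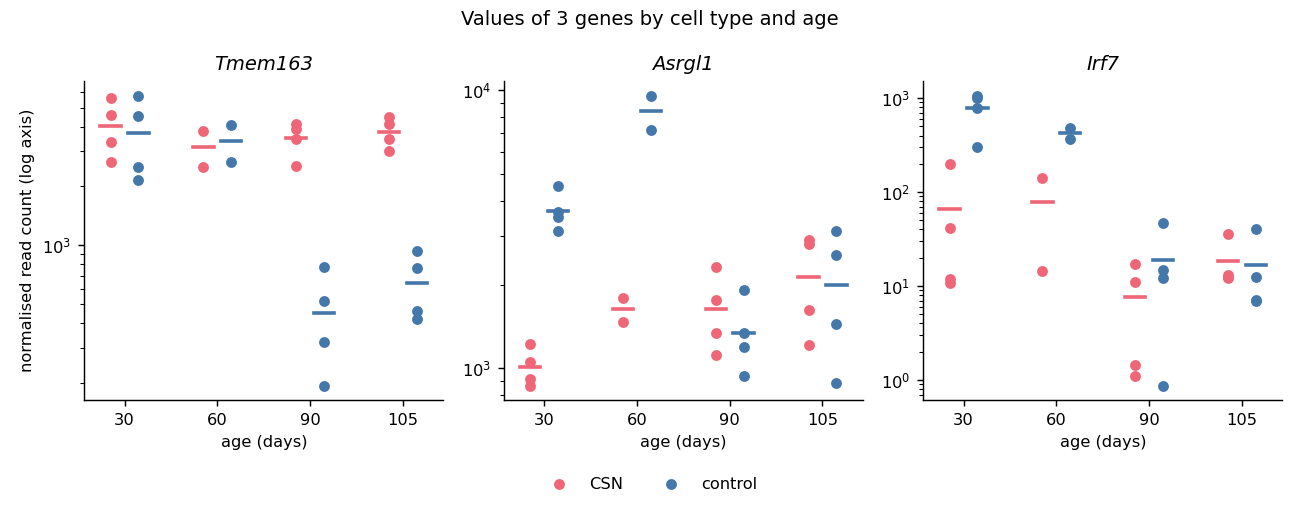
Normalised read counts (log axis) of Tmem163, Asrgl1 and Irf7 in CSN and control cells at each age, with a point for each library and a bar at the mean. Tmem163 stands at 2135 or above in control cells at 30 and 60 days and at 928 or below at 90 and 105 days, while CSN stay between 2495 and 5573.

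Between 105 and 30 days alone, 0 genes of 20594 (0%) passed with limma, with 1911 (9.28%) at an unadjusted p under 0.05. With edgeR 0 passed, with DESeq2 on the recovered reads 93, and with limma without pair 12 of 105 days 111. The smallest adjusted p was 0.0611, shared by Irf7, Tmem163 and Angpt4, followed by Asrgl1 (0.071), Sertad3 and Cela1 (0.124 each), all relatively higher in CSN at 105 days. On the other side the smallest were those of Sec1 (0.227), Gm42736, Tunar, Papolb and Bhlhe41 (0.354). Sec1 shares 21.0% of its annotated exon bases with Ntn5 on the opposite strand. Irf7, a factor of the interferon response, differed by -3.25, -2.28, -0.28 and 0.07 over the ages (105 minus 30 days 3.32 ± 0.53). In control cells it stood at 299, 785, 1008 and 1065 at 30 days and at 7.01, 7.04, 12.5 and 41 at 105 days. Every control library of 105 days thus lay below every control library of 30 days. Irf7 was already low in control cells at 90 days, at 0.87 to 47. Most of these values at 90 and 105 days lay under the added 34.6, where differences are shrunk.

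Finally the wild-type pairs were set beside the 11 Sod1G86R pairs, whose ages are mixed in other proportions, and the fit held no term for age. The 12 largest rises of the wild type were higher in CSN in 11 of 11 Sod1G86R pairs, and the 12 largest falls were lower in 11 of 11. These genes were picked for large differences of the same sign in every wild-type pair. The share of all genes with the same sign in all 11 Sod1G86R pairs was not counted, so this describes the picked genes only. Bcl11b differed by 5.65 ± 0.97 (SD, n = 14) in wild-type pairs and 5.08 ± 0.99 (n = 11) in Sod1G86R pairs, Fezf2 by 5.11 ± 1.02 and 4.18 ± 0.97, Crym by 4.74 ± 1.21 and 5.34 ± 1.48 and Pcp4 by 4.23 ± 1.16 and 4.01 ± 1.28. Whether a difference between the cell types depended on the genotype was tested over 21692 genes with limma, and 0 passed (0%). At an unadjusted p under 0.05 stood 3335 genes (15.4%), a larger share than the 0.05 reached when no gene differs. With edgeR 0 passed, and with DESeq2 on the recovered reads 396. The count of 0 thus does not show that the differences were the same in both genotypes. The smallest adjusted p was that of Cdh13 (0.124), which differed by 2.40 ± 0.71 in wild-type and 3.94 ± 0.78 in Sod1G86R pairs. It was followed by Ints12, Gsr, Pex16 and Dld (adjusted p = 0.203 each), which were lower in CSN of the wild type (-1.19, -0.78, -1.0 and -0.87) and near 0 in Sod1G86R (0.08, 0.25, 0.13 and 0.14).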

How the data were processed

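RNA of CSN and control cells was made into cDNA with SMART-Seq v4 (11 cycles), tagmented with Nextera XT (12 cycles) and sequenced on a HiSeq 4000 as pairs of 50 bases, per the labels' protocols. Reads were aligned to GRCm38 with STAR 2.7.0 and counted per gene of Ensembl release 87, per the series' design text; edgeR and mm10 are named without a role in the submitters' processing notes. The deposited values are normalised read counts, a signal per gene that is comparable between libraries, and the authors' way of normalising them is not stated in the labels. In every library 100.0% of the values were whole multiples of 1 step (tolerance 0.001), so whole reads were recovered for the alternatives. The table held 45337 genes, of which 44987 were given a symbol from GENCODE M21 by identifier and 350 had none.

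Genes at 34.6 or more (1 ppm of the median library total) in at least 3 libraries were tested with limma 3.58.1 in R 4.3.3 (trend and robust variances) on log2(value + 34.6), with the pair as a block and Benjamini-Hochberg adjustment at 0.05; the ages and the genotype were tested as interactions in the same way. Library measures were compared with an exact sign-flip test in SciPy 1.17.1. The labels give same-numbered CSN and control libraries of one age and genotype, and the fit used that number as a block. After removal of the mean of each cell type and age, the correlation of the members of a pair was -0.11 to 0.27 (median 0.04). It exceeded 0.1 in 3 of 14 pairs. With 2 libraries per group at 60 days, both pairs of that age have the same value (0.05) by construction and are not separate checks. The labels do not say that a pair is a single animal or that numbers are separate animals, so p-values measure the spread between these libraries. Leaving out pairs, other pseudocounts, filters and scalings, a fit without the block, and edgeR 4.0.16 and DESeq2 1.42.0 on the recovered reads were the alternatives. The procedure was tested on simulated data with few changed genes and no effect of the pair. In these libraries 55.4% of genes passed over the pairs, so that test does not show how accurate the procedure is here.

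The genes named are the 4 CSN markers, the 12 largest rises and falls with 1 sign in 14 pairs and a mean that reached 346 in the group where they are high, up to 6 members of each list with the smallest p, related genes beside them, the 6 smallest p in each direction for the ages and the 5 smallest for the genotype. The members and lists were chosen with earlier results of these data known. Some genes that the rule takes are not reported here.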

Additional observations from a re-analysis of the deposited data

Results flagged for a closer look

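The difference between CSN and control cells was not the same over the 4 ages for Tmem163 (adjusted p = 0.00525 with limma) and Asrgl1 (adjusted p = 0.00962), the test of that difference being the reason for listing them. Tmem163 differed by 0.18, -0.09, 2.99 and 2.54 on the log2 scale at 30, 60, 90 and 105 days. Asrgl1 differed by -1.83, -2.33, 0.27 and 0.16. The CSN libraries ranged from 2495 to 5573 for Tmem163. For Asrgl1 the mean was 1011 in CSN and 3685 in control cells at 30 days, and 2135 and 1995 at 105 days, so both cell types differed over the ages. The summed oligodendrocyte markers of the control cells moved over the same ages, from 1085730 to 2320070 at 30 and 60 days to between 136949 and 620248 at 90 and 105 days, and their part in the result was not tested. Without a filter on low values neither gene passed (adjusted p = 0.0915 for both), and without pair 1 of 60 days Asrgl1 did not (0.0757).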

How the results depend on the processing

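Over the pairs, the count of genes that passed (11409) stayed within 1.5 times under each alternative except the strict filter (at least 173 in 14 libraries, 7364, with fewer genes tested). It was 11816 without the replicate block, 10747 with edgeR, 12313 with DESeq2, 10119 without the 60-day pairs and 10738 to 11471 when single pairs were left out. Without single pairs the counts were 4983 to 7183 at 30 days, 1436 to 6197 at 60 days (where leaving out 1 of 2 pairs takes the spread from the other ages), 2554 to 4553 at 90 days and 2777 to 5352 at 105 days; without a filter 2801 genes passed at 90 days. The count of genes that varied over the ages (2) was 171 with the pseudocount at 4 times its value, 0 without a filter, 19 with the strict filter, 21 after quantile normalisation, 7 with TMM scaling, 18 without the replicate block, 419 with DESeq2 and 1 to 336 without single pairs. For 105 against 30 days (0) it was 2 with the higher pseudocount, 1 without the replicate block, 93 with DESeq2 and 0 to 111 without single pairs. For the genotype (0) it was 9 without the replicate block, 396 with DESeq2 and 0 to 2 without single pairs. The cause of these changes was not tested.

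The difference in the mitochondrial share (2.66 on the log2 scale) was 2.60 to 2.77 without single pairs. The mean difference in detected genes per library, -112.1 (p = 0.67, exact sign-flip permutation test, 7 of 14 pairs higher), was -208.1 to 31.3 without single pairs, with 31.3 without pair 3 of 90 days and 4.46 without pair 13 of 105 days, and -371.6 when a gene had to reach 346, where it passed (p = 0.00061, the same exact test). Of 204 genes named, 188 kept their call and sign over the pairs under each of the 27 settings in which they were tested, and none reversed. Some named genes, such as Acan, were left out by the strict filter and so not tested under it. Depth limits genes near 34.6, whose differences are shrunk by the pseudocount.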

Other observations

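The 2 wild-type CSN libraries of 60 days without a partner (numbers 3 and 7) entered no comparison of pairs. They held Bcl11b at 9714 and 10468, Fezf2 at 6839 and 6734, Crym at 7194 and 7850.5 and Pcp4 at 28904 and 54536. Nefh stood at 14714 and 10262 and Syt2 at 4919 and 3859, while Calb1, which is low in CSN, stood at 58.6 and 305 and Rasgrf2 at 190.5 and 313. The Pvalb level was 319 and 905 and that of S100b 7123 and 13935.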
